A study of Mus musculus with 6 samples.

Results

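B cell lineage transcripts were examined in regulatory T cells (Tregs, the Foxp3-expressing CD4+ T cells that restrain immune responses) sorted from skin and from skin-draining lymph nodes (SDLN). The genes were chosen by name as B cell receptor and B cell identity genes, and are Ighm, Igkc, Cd79a, Cd79b, Blk, Ms4a1, Cd22, Pax5 and Ebf1, 9 of the 49315 genes in the count table. Bulk RNA-seq was performed on 3 skin and 3 SDLN samples of Foxp3-GFP mice aged 9 days, for which the labels name no treatment and in which green fluorescent protein marks cells that express Foxp3. Per the study's methods, 3 biological replicates were pooled into each sample and live CD45+ CD4+ Foxp3-EGFP+ cells were sorted. The labels give all samples the same genotype and batch number, and since their tissue field reads skin for the SDLN samples too, tissue was taken from the sample titles. Each library has the name of its tissue and a letter, values of 3 libraries always stand in the order A, B, C, and their spread is that between pools.

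The B cell receptor is a membrane immunoglobulin made of heavy and light chains and coupled to the CD79A and CD79B chains, which pass its signal to Src-family and Syk kinases. Each immunoglobulin chain gene is assembled in developing B cells by joining variable (V), diversity (D, in heavy chains) and joining (J) segments to one another, and the joined exon is then spliced to a constant gene such as Ighm or Igkc. The heavy chain locus is also transcribed before it is joined, giving germline transcripts that hold no V segment. T cells assemble their own antigen receptor genes from similar segments, and lymph nodes hold many B cells beside T cells.

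Of the segments that lie between the V genes and Ighm, the 4 J segments and the D segment next to them are shown because their counts differ from those of the V genes, as described with the values further on. All are germline sequences of the GENCODE M21 transcripts, on the minus strand of chromosome 12 (GRCm38), written 5′ to 3′. The capitals mark TGGGG, which occurs in every heavy chain J segment and begins the conserved tryptophan-glycine motif of heavy chain J segments. Ighd4-1 (also called DQ52) is the D segment nearest to the J segments, and is 11 bases long. The gene counted as Ighj2 spans 100 bases (chr12:113429468-113429567), of which the transcript shown covers 48, so its counts can include reads outside the printed sequence.
Ighd4-1 (chr12:113430528-113430538): ctaactgggac
Ighj1 (chr12:113429781-113429833): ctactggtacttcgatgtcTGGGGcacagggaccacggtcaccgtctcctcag
Ighj2 (chr12:113429468-113429515): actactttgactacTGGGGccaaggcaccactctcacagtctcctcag
Ighj3 (chr12:113429085-113429132): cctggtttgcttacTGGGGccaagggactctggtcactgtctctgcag
Ighj4 (chr12:113428514-113428567): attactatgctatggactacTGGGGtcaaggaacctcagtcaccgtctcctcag

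The skin and SDLN libraries differed in depth and breadth, and the skin libraries did not all carry the genes used for the sort. Total counts were 3748669 to 11741784 in skin Tregs and 47243498 to 116158706 in SDLN Tregs. Genes at 1 CPM (defined below) or more numbered 2911, 5317 and 4540 in skin and 12502, 13002 and 12397 in SDLN. Genes with no more than 3 counts in a library are said to be at its floor, since a count of 0 allows up to 3 counts. The floor was 0.255 to 0.8 CPM (counts scaled to a library total of 1000000) in skin and 0.0258 to 0.0635 CPM in SDLN, and covers counting error only. Foxp3 was at 0, 330 and 1 counts in skin and at 12208, 10133 and 1788 counts in SDLN. Cd4 was at 0, 1861 and 2 counts in skin and at 14288 to 54756 counts in SDLN. The defining genes of the sort were therefore at the floor in the libraries labelled skin Tregs A and C. For Cd4, 0 counts in skin Tregs A stood beside 1861 in skin Tregs B, a spread that the floor does not cover. Folds stated below as at least a value, and counts expected at the SDLN level, allow for counting error alone.

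Skin Tregs held Ighm and Igkc counts, whereas the other B cell lineage genes were at or near the floor. Ighm and Igkc were over the floor in all 6 libraries. The other 7 genes were over the floor in all SDLN libraries, and the only one of them over the floor in any skin library was Cd79b, in skin Tregs C. In the edgeR quasi-likelihood test across 13572 genes, 6 of the 8 members tested were lower in skin (Cd79a, Ms4a1, Ighm, Cd22, Ebf1 and Blk) and 0 were higher, while Pax5 was too low to be tested. This count was 5 to 7 when any 1 library was left out, with Ighm lost without SDLN Tregs A and Cd79b gained without skin Tregs C. With skin Tregs A and C left out together it was 6, with Cd79b in place of Ighm, but that fit holds a single skin library, B, whose spread is assumed to be that of the SDLN libraries. With upper quartile scaling it was 5, without Ighm. The factor it set was 0.0114 for skin Tregs A, against 1.33 to 3.09 for the other libraries, so values on this scale rest on 1 library. Over all genes tested, 45.3% were called lower in skin and 1.04% higher. The skin and SDLN libraries did not overlap for 7 of the 8 members tested, against 55.9% of all genes tested. Fewer cells of a type and less RNA per cell cannot be told apart in bulk samples.

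**Figure D1:**
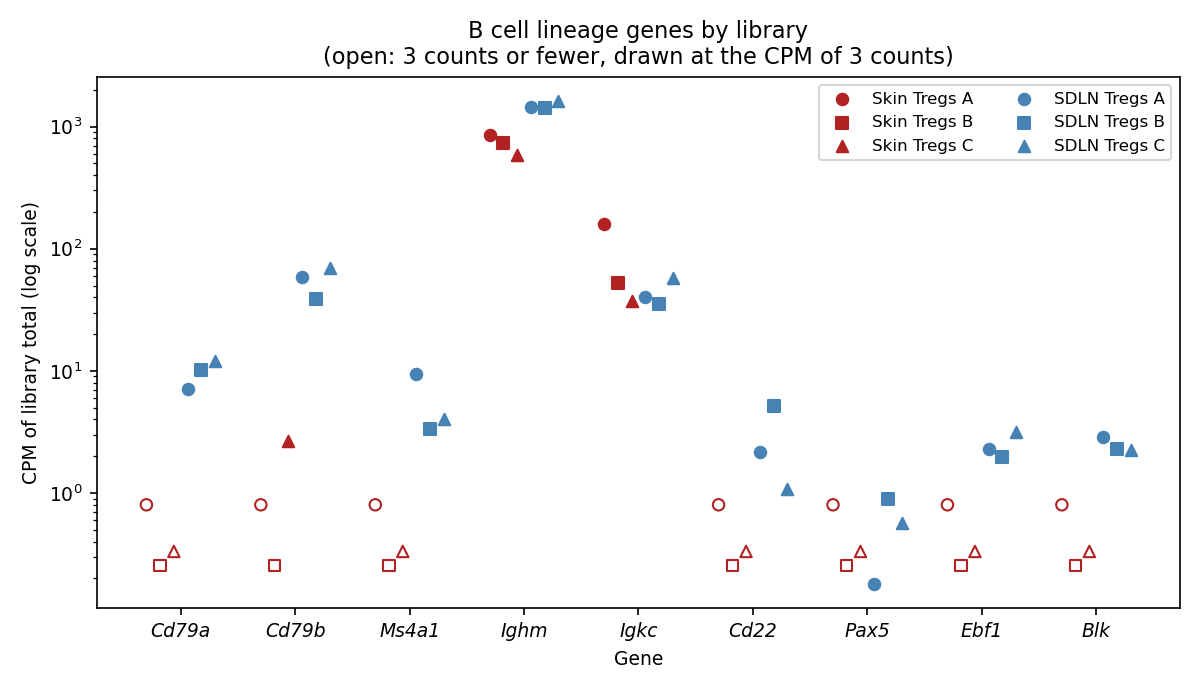
CPM (log scale) of the 9 B cell lineage genes in each library, 1 point per library, red for skin Tregs and blue for SDLN Tregs. Open points are libraries at 3 counts or fewer, drawn at the CPM of 3 counts, and 6 of the genes have open points in all 3 skin libraries, while Ighm and Igkc have none.

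Ighm, the constant gene of the IgM heavy chain, was the most abundant member in every library. It lies at chr12:113418558-113422730 on the minus strand. Counts were 3226, 8640 and 5271 in skin and 166658, 103190 and 76617 in SDLN. These were 861, 736 and 583 CPM in skin against 1435, 1417 and 1622 CPM in SDLN. Every skin library lay below every SDLN library, and the gap between the tissues was wider than the range within either. Mean levels were 727 ± 139 CPM (SD, n = 3) for skin and 1491 ± 113 CPM (SD, n = 3) for SDLN. The log2 fold change, skin over SDLN, was -1.10 (SE 0.27, edgeR adjusted p = 0.0171), and it was 5.63 with the upper quartile scaling described above (adjusted p = 0.176). The median log2 fold change of all genes tested was -2.21 and Ighm lay 1.11 above it, but this distance depended on the processing, being 6.23 without skin Tregs B and -1.37 where each library had to hold 10 or more counts. Of 19 alternatives, 13 called Ighm lower, the adjusted p running from 1.31e-10 to 0.288. The call was lost without SDLN Tregs A (edgeR adjusted p = 0.0631) and with limma voom (adjusted p = 0.229). It was also lost with no filter (edgeR adjusted p = 0.288) and with at least 10 counts in every library (edgeR adjusted p = 0.0523). With skin Tregs B as the only skin library, the log2 fold change was -0.97.

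Igkc, the constant gene of the kappa light chain (chr6:70726435-70726966, plus strand), did not separate the tissues. Its counts were 596, 619 and 338 in skin and 4657, 2552 and 2704 in SDLN, or 159, 52.7 and 37.4 CPM against 40.1, 35.1 and 57.2 CPM. Skin Tregs A stood above all other libraries, and the other 2 skin libraries lay within the SDLN range. The log2 fold change was 0.67 (SE 1.16, edgeR adjusted p = 0.814). It was 0.03 without skin Tregs A and 8.26 with upper quartile scaling, and Igkc was called in 0 of 19 alternatives (adjusted p from 0.108 to 0.991).

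The balance of heavy to light chain constant counts did not overlap between the tissues. There were 5.41, 14.0 and 15.6 Ighm counts per Igkc count in skin, against 35.8, 40.4 and 28.3 in SDLN. All skin values lay below all SDLN values, with means of 11.7 ± 5.47 and 34.9 ± 6.10 (SD, n = 3 each) and an exact two-sided permutation p of 0.1, the smallest that 3 against 3 libraries allow. Per kilobase of exon, the ratio was 1.53 to 4.40 in skin and 7.99 to 11.4 in SDLN, so Ighm exceeded Igkc on this scale in all libraries.

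Cd79a, which encodes the Igα signalling chain (chr7:24897381-24902197, plus strand), was at 0 counts in all skin libraries. The SDLN libraries held 819, 735 and 567 counts, or 9.72 ± 2.5 CPM (SD, n = 3). Against the mean skin floor of 3 counts per library, which covers counting error only, Cd79a was at least 21-fold lower in skin (edgeR adjusted p = 0.00322). At the mean SDLN level, the skin libraries would have held 36.4, 114 and 87.8 counts.

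Cd79b, the Igβ chain that pairs with it (chr11:106311341-106314762, minus strand), was at 0, 0 and 24 counts in skin and at 6816, 2834 and 3304 counts in SDLN. The groups did not overlap, at 0, 0 and 2.66 CPM against 58.7, 38.9 and 69.9 CPM. The log2 fold change of -5.66 (SE 2.57) did not pass in edgeR (adjusted p = 0.147). It passed without skin Tregs C (adjusted p = 0.00493), with DESeq2 (adjusted p = 0.0123) and with limma voom (adjusted p = 0.0135). The adjusted p ran from 0.000279 to 0.251 over 18 alternatives, the lowest being from the fit with 1 skin library. At the mean SDLN level, the skin libraries would have held 209, 656 and 504 counts of this gene.

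Blk, a Src-family kinase of B cells (chr14:63372836-63417037, minus strand), was at 0 counts in every skin library and at 331, 167 and 107 counts in SDLN. Its SDLN level was 2.47 ± 0.329 CPM (SD, n = 3), and it was at least 5.34-fold lower in skin (edgeR adjusted p = 0.00326). At that level skin Tregs A, the smallest library, would have held 9.26 counts of Blk.

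Genes of mature B cell surface proteins were likewise at 0 counts in all skin libraries. Ms4a1, which encodes CD20 (chr19:11249675-11266241, minus strand), had 1100, 243 and 192 counts in SDLN, or 5.62 ± 3.35 CPM (SD, n = 3), with SDLN Tregs A above the other 2. It was at least 12.2-fold lower in skin (edgeR adjusted p = 0.00611). Cd22, an inhibitory co-receptor that binds sialic acid (chr7:30865402-30880342, minus strand), had 250, 376 and 51 counts in SDLN, or 2.80 ± 2.12 CPM (SD, n = 3). It was at least 6.05-fold lower in skin (edgeR adjusted p = 0.0137). Ms4a1 was highest in SDLN Tregs A and Cd22 in SDLN Tregs B, so the SDLN libraries did not rank alike across these genes.

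The transcription factors that set and keep B cell identity were low in SDLN. Pax5 had the lowest mean CPM of the members there, while the Ebf1 range overlapped that of Blk. Ebf1, needed for entry into the B cell lineage (chr11:44617317-45008091, plus strand), had 0, 1 and 0 counts in skin and 264, 143 and 148 counts in SDLN. Its SDLN level was 2.46 ± 0.606 CPM (SD, n = 3), and it was at least 5.31-fold lower in skin (edgeR adjusted p = 0.00335). Pax5, which maintains B cell identity (chr4:44524757-44710487, minus strand), had 0 counts in skin and 21, 65 and 27 counts in SDLN, or 0.548 ± 0.357 CPM (SD, n = 3). At that level the skin libraries would have held 2.06, 6.44 and 4.95 counts, so a difference in Pax5 was not detectable at the depth of skin Tregs A. Pax5 was tested in 7 alternatives and called lower in 1 of them, DESeq2 (adjusted p = 0.0272).

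Levels per kilobase of exon spanned a wide range in SDLN Tregs. The order of mean SDLN CPM per kilobase was Ighm (791), Igkc (82.9), Cd79b (39.0), Cd79a (6.67), Blk (0.915), Ms4a1 (0.909), Cd22 (0.555), Ebf1 (0.252) and Pax5 (0.0619). Blk (0.839 to 1.06 over the 3 libraries), Ms4a1 (0.540 to 1.53) and Cd22 (0.214 to 1.02) overlapped with their neighbours in this order, as did Cd22 and Ebf1 (0.201 to 0.321). The ranges of the other neighbours did not overlap, Igkc lying at 65.9 to 107.6 and Cd79b at 27.2 to 48.9 CPM per kilobase.

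Summed over the 9 genes, the level was 1020, 789 and 624 CPM in skin and 1557, 1515 and 1772 CPM in SDLN. Ighm made up 84.4% to 93.6% of this sum in skin and 91.5% to 93.5% in SDLN. The ratio of the means was 0.502 (exact two-sided permutation p = 0.1, the smallest possible), with the skin libraries all below the SDLN libraries. Without Ighm and Igkc, the remaining 7 genes summed to 0, 0.0852 and 2.66 CPM in skin against 82.7, 62.7 and 93.0 CPM in SDLN (exact permutation p = 0.1). The number of members over the floor was 2, 2 and 3 in skin and 9 in each SDLN library (exact permutation p = 0.1).

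Pan T cell transcripts were set beside Ighm because their summed level differed between the tissues by a like factor. The 14 pan T cell genes (T cell receptor constant genes, CD3 chains, Lck and others) summed to 4195 to 6805 CPM in skin and 11152 to 13498 CPM in SDLN, a ratio of 0.481 (exact two-sided permutation p = 0.1), where the ratio of the mean CPM of Ighm was 0.487. Per 1000 counts of these genes, Ighm was at 205, 108 and 87.7 counts in skin and at 119, 127 and 120 counts in SDLN. The groups overlapped on this scale, which follows from the choice of a reference with a like ratio, so no conclusion is drawn from it. The 7 members other than Ighm and Igkc did not overlap, at 0, 0.0125 and 0.399 counts per 1000 in skin against 6.85, 5.62 and 6.89 counts per 1000 in SDLN (exact permutation p = 0.1).

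**Figure D2:**
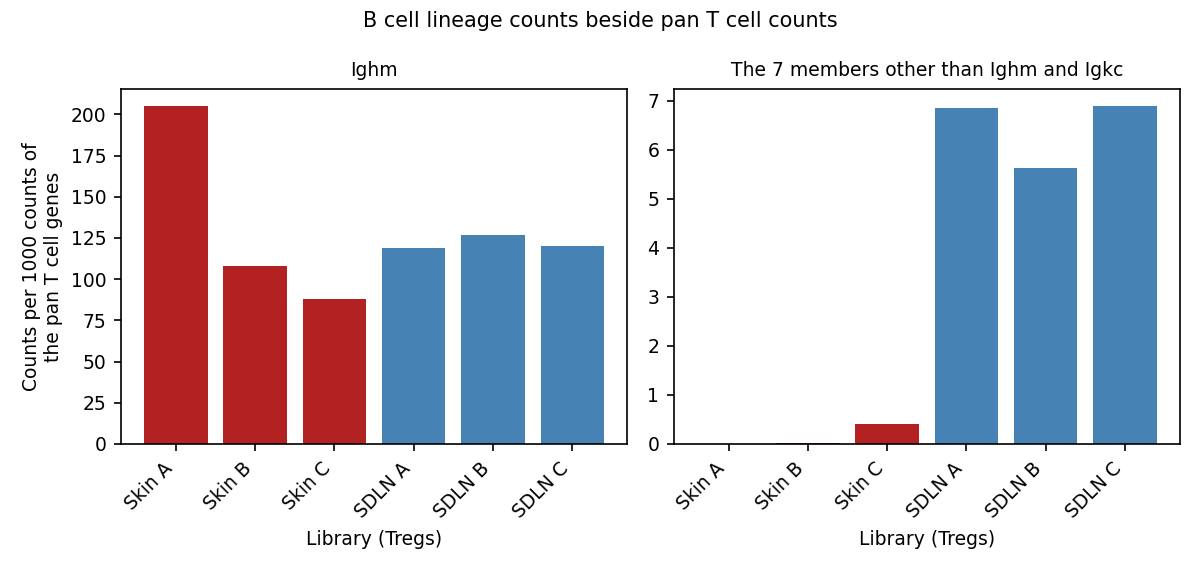
Counts of Ighm (left) and of the 7 members other than Ighm and Igkc (right) per 1000 counts of the 14 pan T cell genes, 1 bar per library, red for skin Tregs and blue for SDLN Tregs. Ighm spans 87.7 to 205 in skin and 119 to 127 in SDLN, whereas the other 7 genes are at 0.399 or less in skin and at 5.62 or more in SDLN.

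The genes whose levels followed those of Ighm most closely were sought among the 8267 genes that averaged 10 CPM or more. Likeness was measured as the root mean square difference of mean-centred log2(CPM + 1) over the 6 libraries, where 0 is identity. The nearest was Trbc2 (0.0885), a constant gene of the T cell receptor β chain, followed by Psme2b (0.164), Cd3g (0.185), Cnbp (0.189) and Rac2 (0.212). Trbc2 was at 548, 495 and 370 CPM in skin and at 1080, 893 and 1060 CPM in SDLN, and its near-identical copy Trbc1 makes the split of counts between them uncertain. The same 5 genes were nearest to the sum of the 9 members, of which Ighm is the main part.

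Heavy chain and kappa V segments were at or near 0 counts in skin, where the constant genes of both chains were counted. The 113 heavy chain V segments (Ighv) summed to 0, 0 and 5 counts in skin, the 5 counts all falling on Ighv12-3, and to 549, 304 and 208 counts in SDLN. The 100 kappa V segments (Igkv) summed to 0, 0 and 1 counts in skin and to 969, 478 and 642 counts in SDLN. No skin library overlapped an SDLN library for either class, at 0 to 0.553 against 4.18 to 4.73 CPM for Ighv and 0 to 0.111 against 6.57 to 13.6 CPM for Igkv (exact permutation p = 0.1 for each).

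V segment counts were also few in SDLN Tregs beside Ighm, but not beside Igkc. Per 1000 Ighm counts there were 3.29, 2.95 and 2.71 Ighv counts in SDLN, against 0, 0 and 0.949 in skin. Per 1000 Igkc counts there were 208, 187 and 237 Igkv counts in SDLN, against 0, 0 and 2.96 in skin. The V share of the kappa chain was thus 63.2, 63.6 and 87.5 times that of the heavy chain in SDLN. These shares use raw counts and are not scaled to exon length, which is 1886 bases for Ighm and 532 for Igkc. The skin and SDLN shares did not overlap for either chain, with means of 0.316 ± 0.548 against 2.99 ± 0.292 for the heavy chain and 0.986 ± 1.71 against 211 ± 25.2 for the kappa chain (SD, n = 3 each, exact permutation p = 0.1 for each). At the SDLN share, the skin libraries would have held 9.63, 25.8 and 15.7 Ighv counts and 126, 131 and 71.3 Igkv counts.

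**Figure D3:**
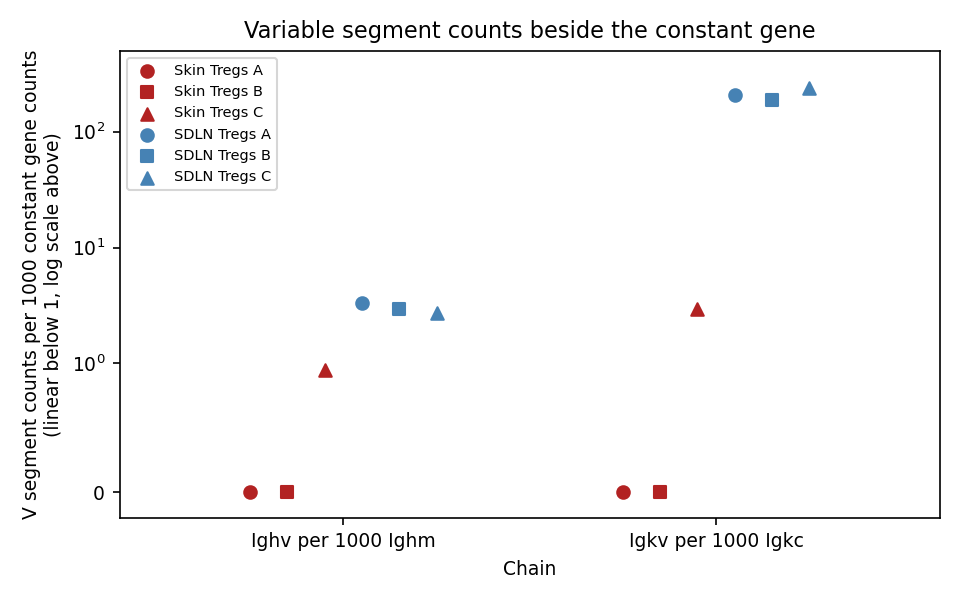
V segment counts per 1000 counts of the constant gene of the same chain in each library, red for skin Tregs and blue for SDLN Tregs, on an axis that is linear below 1 and logarithmic above. SDLN Tregs hold 2.71 to 3.29 Ighv counts per 1000 Ighm and 187 to 237 Igkv counts per 1000 Igkc, and the highest skin values are 0.949 and 2.96.

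Heavy chain and kappa V use was spread over many segments in SDLN Tregs. Over 3 counts were found for 20, 22 and 20 Ighv and 33, 29 and 37 Igkv segments in SDLN. The leading segment held 10.7% to 18.1% of the Ighv counts and 8.15% to 14.2% of the Igkv counts. Iglv1, a V segment of the lambda light chain, led each SDLN library with 956, 97 and 403 counts, followed by Iglv2 (153 counts) in A, Igkv8-27 (68 counts) in B and Iglv2 (338 counts) in C. The third place went to Igkv8-27 (79 counts) in SDLN Tregs A, Ighv5-16 (55 counts) in B and Igkv6-15 (75 counts) in C.

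The D and J segments printed above gave a different picture from the V segments. D segments summed to 1465, 1085 and 507 counts in SDLN, and Ighd4-1 alone held 1458, 1082 and 498 of these, or 98.2% to 99.7%. Ighd4-1 was at 0 counts in all skin libraries and was called lower (edgeR adjusted p = 0.00322). V segments made up 13.3%, 9.14% and 14.1% of the V, D and J segment counts of the heavy chain in SDLN. Within the J segments, Ighj1, the one next to Ighd4-1, held 71.2%, 60.0% and 81.2% of the SDLN counts.

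Skin Tregs carried J counts in some libraries and none in another. Ighj1 was at 203, 92 and 0 counts in skin and at 1515, 1162 and 616 counts in SDLN. Ighj2, Ighj3 and Ighj4 were at 200, 129 and 195 counts in skin Tregs A and at 0 in skin Tregs B and C. None of the 4 passed the test (edgeR adjusted p from 0.516 to 0.984). Ighd, the constant gene of IgD that is co-expressed with Ighm in mature naive B cells, was at 0 counts in all skin libraries and at 1804, 1305 and 823 counts in SDLN (edgeR adjusted p = 0.00322).

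The lambda light chain was seen in skin Tregs A alone among the skin libraries. Iglv1 was at 496 counts and Iglc3 at 350 counts there, both at 0 in skin Tregs B and C, and neither passed the test (edgeR adjusted p = 0.701 and 0.722). Iglc2 and Iglc1 were at 0 counts in skin and at 617, 246 and 515 and at 740, 154 and 297 counts in SDLN (edgeR adjusted p = 0.00679 and 0.00748). Iglc2 and Iglc3 are near-identical copies, as are Iglv1 and Iglv2, so that the split between them is uncertain. With Iglv1 in skin Tregs A, the mean sum of all 218 V segments in skin was 1.91 times that in SDLN, with overlapping groups (132, 0 and 0.664 CPM against 22.9, 13.0 and 33.8 CPM, exact two-sided permutation p = 1.0), and without that library the ratio was 0.0143.

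**Figure D4:**
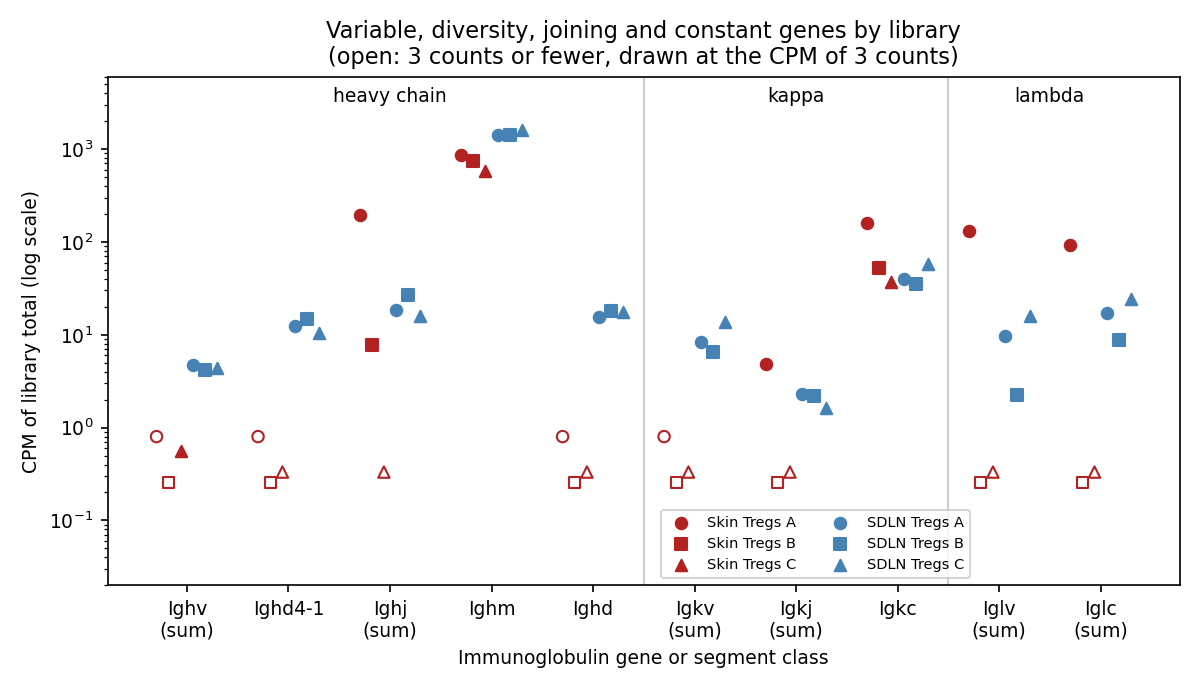
CPM (log scale) of immunoglobulin V, D, J and constant genes of the heavy, kappa and lambda chains, 1 point per library, with classes marked as sums. Open points are libraries at 3 counts or fewer, drawn at the CPM of 3 counts, and filled skin points appear in all 3 libraries only for Ighm and Igkc.

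Many B cell genes outside the 9 members were also at the floor in skin, as were most genes of low SDLN level. Of all genes at 1 to 3, 3 to 10 and 10 to 30 mean SDLN CPM, 73.5%, 65.2% and 56.5% were at the floor in every skin library. Of those tested, 70.3%, 67.4% and 60.3% were called lower in skin. The list genes were not matched by level. Of 69 genes in 6 lists, 52 were tested, 31 were lower in skin and 1 was higher, beside 45.3% and 1.04% of all genes tested. With skin Tregs B as the only skin library, and no spread of its own, these counts were 41 and 6. Of the 11 other constant and joining chain genes, 5 were tested and 4 fell. Of the 16 surface genes, 14 were tested and 11 fell, all 11 being at the floor in every skin library. Among them was Fcmr, the Fc receptor for IgM, at 0 counts in skin and 714, 468 and 356 counts in SDLN (edgeR adjusted p = 0.00322).

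The other surface genes described here did not pass or were not tested. Tnfrsf13b, the receptor TACI for the survival factors BAFF and APRIL, was at 0, 1636 and 8083 counts in skin and 24832, 16711 and 13513 counts in SDLN (edgeR adjusted p = 0.906). Cd180, an LPS-response co-receptor of B cells and myeloid cells, was at 0, 425 and 937 counts in skin and 137, 61 and 29 counts in SDLN (edgeR adjusted p = 0.125). Fcgr2b, the inhibitory IgG receptor, was found in skin Tregs C (3418 counts) and SDLN Tregs C (61 counts) alone and was not tested. Ms4a4c was at 0, 883 and 0 counts in skin and at 4773, 2543 and 1824 counts in SDLN (edgeR adjusted p = 0.953). Among the skin libraries, Tnfrsf13b, Cd180 and Fcgr2b were highest in C and Ms4a4c in B.

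All 14 B cell receptor signalling genes were tested and 8 fell, each of the 8 at the floor in every skin library. Pik3ap1, the adaptor BCAP, was at 0 counts in skin and 1305, 867 and 261 counts in SDLN (edgeR adjusted p = 0.0033). Lyn, the Src-family kinase that phosphorylates the receptor chains, was at 371, 64.9 and 286 CPM in skin and at 24.1, 24.0 and 17.4 CPM in SDLN, which did not pass (edgeR adjusted p = 0.0514) although the groups did not overlap. Cd81, a tetraspanin that many cells express, averaged 957 ± 539 CPM over the skin libraries and 482 ± 145 CPM over the SDLN libraries (SD, n = 3 each, edgeR adjusted p = 0.352). Vav1 was at 0, 0 and 4005 counts and Ptpn6, the phosphatase SHP-1, at 0, 0 and 154 counts in skin, beside means of 230 and 372 CPM in SDLN (edgeR adjusted p = 0.978 and 0.201).

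Of 13 transcription factors, 4 fell and 1 rose. Mef2c was at 0, 1 and 0 counts in skin and at 481, 345 and 231 counts in SDLN (edgeR adjusted p = 0.00322). Spi1, which encodes PU.1 and acts in both myeloid and B cells, was higher in skin, at 399, 271 and 14.1 CPM against 3.49, 1.61 and 1.19 CPM in SDLN (log2 fold change 6.52, SE 1.74, edgeR adjusted p = 0.0232). With any 1 of the SDLN libraries left out, no gene of these lists was called higher. Ikzf3 and Ikzf1, Ikaros family factors of T and B cells, were at 141 ± 37.8 and 86.7 ± 97.4 CPM over the skin libraries, beside 260 ± 67.9 and 277 ± 56.5 CPM over the SDLN libraries (SD, n = 3 each). Neither passed (edgeR adjusted p = 0.521 and 0.65). Irf4, which acts in plasma cells and in Tregs, was at 1931, 0 and 0 counts in skin and did not pass (edgeR adjusted p = 0.96).

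Genes of early B cell stages were low in both tissues, with 1 exception. Of the 9 early genes only Lef1, which naive T cells also express, was tested, and it fell from 339 ± 22.8 CPM in SDLN to 0.204 ± 0.223 CPM in skin (SD, n = 3 each, edgeR adjusted p = 0.00529). Vpreb1 and Vpreb3, genes of the pre-B cell stage, had 69, 18 and 0 and 87, 19 and 17 counts in SDLN and 0 in skin. Dntt, which encodes the terminal transferase that adds bases at segment joints, had 33, 29 and 0 counts in SDLN, and Igll1, a surrogate light chain gene, had 10 counts in SDLN Tregs C, with 0 in skin for both. Rag1, the recombinase gene, had 10 counts in SDLN Tregs B, 3 in skin Tregs C and 0 elsewhere. Of 6 plasma cell genes, 5 were tested and 3 fell, which were Sdc1, Mzb1 and Derl3, all at 0 counts in skin. Xbp1, a secretory stress factor of many cells, averaged 358 ± 277 CPM over the skin libraries and 224 ± 25.1 CPM over the SDLN libraries (SD, n = 3 each, edgeR adjusted p = 0.725). Prdm1, which encodes Blimp-1 and is also used by Tregs, was at 0, 32 and 0 counts in skin and did not pass (edgeR adjusted p = 0.184).

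The lists are described by their counts and medians, since they were chosen with results of these data known. With genes at the floor set at their bound, the median log2 fold change was -2.51 for the 8 members tested, -3.41 for the other constant genes, -2.71 for surface genes, -2.10 for signalling genes, -0.83 for transcription factors and -1.76 for plasma cell genes, while the only early gene tested, Lef1, was at -10.40. Over all genes tested it was -1.29 on the same scale. By fitted values these medians were -7.80, -10.78, -9.64, -6.88, -0.83 and -8.03, and -10.40 for Lef1, beside -2.21 for all genes tested.

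**Figure D5:**
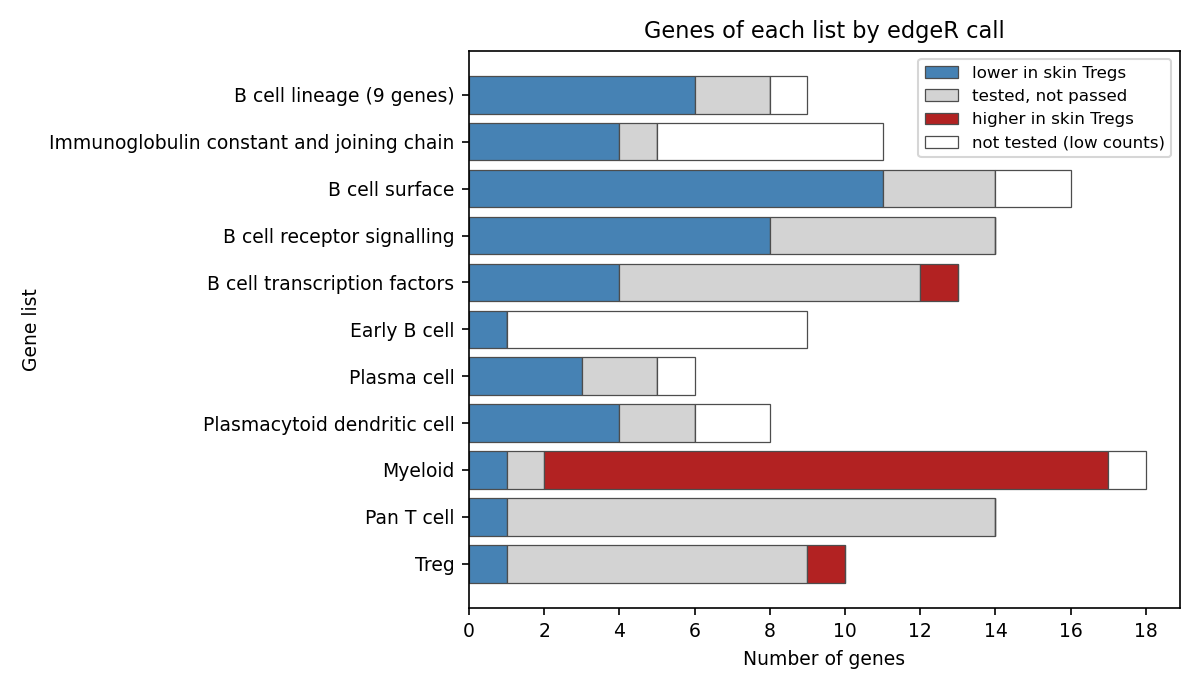
Number of genes in each list by their edgeR call (adjusted p threshold 0.05), as stacked bars, with white for genes too low to be tested. Of the 9 B cell lineage genes 6 are lower in skin Tregs, and of the 18 myeloid genes 15 are higher.

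The myeloid markers had the opposite direction to the B cell genes. Of 18 myeloid and antigen presentation genes, 17 were tested, 15 rose in skin and 1, Itgam, fell, and their summed level was 34635 to 59310 CPM in skin and 449 to 785 CPM in SDLN. Cd74, the invariant chain of MHC class II that B cells and myeloid cells both express, was at 26833, 17637 and 18402 CPM in skin against 372, 296 and 599 CPM in SDLN (log2 fold change 5.55, SE 0.39, edgeR adjusted p = 0.00322). H2-Ab1, H2-Aa and H2-Eb1, its class II partners, rose by 7.32, 7.71 and 7.53 on the log2 scale. Their part in the Ighm and Igkc counts was not tested. Of 8 genes of plasmacytoid dendritic cells, which share several transcription factors with B cells, 6 were tested and 4 fell, and the summed level was 131 to 512 CPM in skin and 143 to 165 CPM in SDLN. Bst2 was at 512, 78.1 and 0 CPM and Tcf4 at 0, 109 and 131 CPM in skin, neither of which passed (edgeR adjusted p = 0.785 and 0.378). Pacsin1 was at 0, 1 and 0 counts in skin and at 10976, 5649 and 3458 counts in SDLN (edgeR adjusted p = 0.00673). Ly6c2, which has a near-identical copy in Ly6c1, was at 0 counts in skin and at 930, 436 and 200 counts in SDLN (edgeR adjusted p = 0.00329). Of the 14 pan T cell genes 1 fell, Trbc2, and of 10 Treg genes 1 fell (Izumo1r) and 1 rose (Ctla4), the Treg sum being 6730 to 9794 CPM in skin and 7329 to 9255 CPM in SDLN. Trbc2 was called in 9 of 19 alternatives and Ctla4 in 4 of 19. The most abundant other genes of these lists did not pass, which were Cd2, Lck, Trac and Cd3g (edgeR adjusted p from 0.0673 to 0.876) and Capg, Tnfrsf4, Ikzf2 and Il2ra (edgeR adjusted p from 0.505 to 0.98).

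The calls were set beside those of all genes of the same SDLN level. Of the genes tested at 1 to 3 SDLN CPM, where Cd22, Ebf1 and Blk lie, 70.3% were called lower in skin. At 3 to 10 CPM, where Cd79a and Ms4a1 lie, it was 67.4%, and 65.1% were at the floor in every skin library. At 30 to 100 CPM, where Cd79b and Igkc lie, 31.8% were called lower. At 1000 to 3000 CPM, the range of Ighm, 8 of 81 genes (9.88%) were. The 5 members at 1 to 10 CPM were thus called in ranges where most genes were, and Ighm in a range where few were.

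With every library drawn down to the same total of 3748669 counts, the SDLN libraries kept most members in view. Cd79a was at 26, 44 and 44 counts and Cd79b at 229, 144 and 251 counts in SDLN. Ms4a1 kept 31, 6 and 11 counts, Ebf1 11, 5 and 17, Cd22 7, 10 and 5, and Blk 6, 8 and 7. Pax5 was left with 1, 4 and 0. Only 4 members were then tested, of which Cd79a and Ighm were called lower.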

How the data were processed

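The authors trimmed reads with Trimmomatic 0.36, mapped them with STAR 2.5.2b and counted them with featureCounts (Subread 1.5.2), on GRCm38. The authors deposited unnormalized read counts for each Ensembl gene. Per the study's methods these are unique gene counts of reads within exons, with no further detail on reads that map to several copies. The strand setting and the counting of reads that span joined immunoglobulin segments are not given in the sources used here. Genes overlapping the members had at most 34 counts. GENCODE M21 gave symbols, positions and exon lengths, naming 49056 of 49315 genes.

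The 9 members and the gene lists were chosen with earlier results of these data known. From each list were named all genes where 6 or fewer exceeded 3 counts in any library, otherwise the 4 most abundant and the best called in each direction. Groups came from sample titles, since the tissue label reads skin throughout. Column letters are not linked to replicate numbers. CPM are counts scaled to a library total of 1000000.

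Counts were tested with edgeR 4.0.16 in R 4.3.3 (filterByExpr, TMM, robust quasi-likelihood F test, tissue as the only term), with Benjamini-Hochberg adjustment over all genes tested and a threshold of 0.05. Single values were compared by exact two-sided permutation tests. Standard errors came from the F statistic. On simulated data the test recovered changed genes at a low dispersion but none at a dispersion near that fitted here (common dispersion 2.04), so genes that did not pass may still differ. Alternatives were other scalings, DESeq2 1.42.0, limma 3.58.1 voom, other filters, equal depth, column letter as a block and libraries left out. The study's methods name DESeq2 for whole skin but no test for sorted Tregs, and its own fold changes were not used here.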

Additional observations from a re-analysis of the deposited data

How the results depend on the processing

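No label says what the shared column letters stand for, and same-letter libraries did not deviate together (correlations -0.0192 to 0.07 over 13572 genes). With the letter as a replicate block, chosen after seeing the data, the same 6 members were lower, 32 list genes were lower and 0 higher, and 5633 genes were lower and 61 higher over all. Members at the floor in every skin library could hardly change direction under any alternative, so their direction was not informative. Direction held for Cd79b and Igkc wherever they were tested. It also held for Ighm, except with upper quartile scaling (log2 fold change 5.63), which gave skin Tregs A a factor of 0.0114. That scaling moved the median log2 fold change of all genes from -2.21 to -1.24. The summed level of the 9 members, skin over SDLN, was 1.14 when scaled to the pan T cell counts, and 0.437 to 0.560 when 1 library was left out. The ratio for all V segments was 0.0143 to 2.86 when 1 library was left out, and 0 with skin Tregs A and C left out together, a choice made after seeing the data.

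With at least 10 counts in every library, 2 members were tested and 0 called lower, with 0 of the B cell list genes lower and 2 higher, and 9 genes lower and 81 higher over all. There 10% of all calls were lower, against 97.8% in the main test, because genes at the floor in skin were not tested. Drawn down to equal depth, 2 members, 16 list genes and 4014 genes over all were lower. Higher list genes numbered 2 with upper quartile scaling, library size only, voom and non-robust dispersions, 3 with DESeq2 and 6 with skin Tregs B alone. Over all genes, 378 were higher with DESeq2, 77 with no filter and 1951 with skin Tregs B alone (81.3% of calls lower), a fit whose skin arm is 1 library with no spread of its own. When 1 library was left out, members lower ranged from 5 to 7, list genes higher from 0 to 3, and all genes higher from 71 to 324. Low totals in skin limit what can be said of members under 1 CPM, and pools of mice with 3 libraries per tissue limit every test.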
